A study of Mus musculus with 11 samples.

Results

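The heat shock and endoplasmic reticulum (ER) stress chaperone genes comprise 37 genes taken from a named list and matched by symbol to the table of all loci in mouse gonadal white adipose tissue, the visceral fat pad beside the testis. They occupy 36 of its 42815 loci, because the near-identical HSP70 genes Hspa1a and Hspa1b share 1 row. The list holds 12 cytosolic heat shock proteins, 3 mitochondrial chaperones, 13 ER chaperones and folding enzymes, 2 genes of ER-associated degradation, and 7 sensors and transcription factors of the unfolded protein response (UPR). The tissue came from 5 14-3-3ζKO samples and 6 wild-type samples. The 14-3-3ζKO mice carry null alleles of Ywhaz, which encodes the adaptor protein 14-3-3ζ, in the whole body, so every cell type of the fat pad carries the deletion, not only adipocytes. The wild-type controls were littermates in the study's methods. All mice were C57Bl/6 males, 50 weeks of age, singly housed and fed standard chow according to the labels. The study names a low-fat diet for the mice of its gene comparison in this fat, and which food these animals ate was not settled here. The question addressed here was how far the chaperones of the cytosol, the mitochondria and the ER differ together or separately between the genotypes.

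Chaperones hold unfolded proteins in solution and help them to fold. In the cytosol, HSP70 and HSP90 work with J-domain co-chaperones of the HSP40 family and with HSP110 exchange factors, and heat shock factor 1 raises many of their transcripts when proteins unfold. In the ER, BiP and GRP94 are the corresponding HSP70 and HSP90, calnexin and calreticulin hold glycoproteins, and protein disulphide isomerases form the disulphide bonds of secreted proteins such as adiponectin and collagen. When the ER is overloaded, IRE1, PERK and ATF6 signal to the nucleus, where spliced XBP1, ATF4 and cleaved ATF6 raise chaperone, degradation and amino acid genes.

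Values are FPKM, in which fragment numbers are divided by transcript length and by the size of the mapped library, so levels can be compared between genes. For all loci the deposited table gives 1 value per group, and values per library were deposited for 86 loci, those called by the authors' own comparison of the genotypes, which include 0 of the 37 members. The members therefore have no replicate spread here, no test was made on them, and each difference below sets 1 value per genotype against another. A difference is the log2 of (14-3-3ζKO FPKM + 1) over (wild-type FPKM + 1), which understates the change of low genes, and a locus is counted as higher or lower when it passes a fold of 1.5 on that scale. The study's methods give a general number of reads, but no totals per library were given, so the depth of each library is unknown.

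Ywhaz, the deleted gene, stood at 18.7, 38.2, 17.1, 14.5 and 24.1 FPKM in the 5 14-3-3ζKO libraries, against 118, 94.2, 100.4, 118, 95.4 and 117 FPKM in the 6 wild-type libraries, and the groups did not overlap. The adipocyte markers Fabp4 and Adipoq were at 31136 and 1607 FPKM in 14-3-3ζKO and 13823 and 1474 FPKM in wild-type fat, so the defining genes of the labelled tissue were present, but the epididymal genes Lcn5 and Lcn8 were also high, at 2141 and 1108 FPKM in 14-3-3ζKO and 2737 and 2136 FPKM in wild-type. The libraries were not alike within a genotype in the 86 loci with library values, from which the next 3 genes come. The macrophage marker Cd68 lay between 31.1 and 56.9 FPKM in 14-3-3ζKO libraries, while wild-type replicates 1, 3 and 4 had 461, 499 and 476 FPKM and the other wild-type replicates 84.9, 72.5 and 41.8 FPKM. 14-3-3ζKO replicate 1 stood apart in the early stress genes Ier3 and Gadd45g, at 268 and 358 FPKM, where the other 14-3-3ζKO replicates had 18.4 to 82.2 and 24.9 to 90.5 FPKM, and wild-type replicates 6.71 to 26.2 and 14.6 to 31.5 FPKM. No group value of a member can be recomputed without these libraries.

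Each of the 13 listed ER chaperones had a lower value in 14-3-3ζKO than in wild-type fat, and each of the 3 listed mitochondrial chaperones a higher one. Cytosolic heat shock genes went both ways. Of 13 other mitochondrial folding and proteolysis genes, 8 were below 0 and 5 above it, with a median of -0.02. Of the 36 loci, 7 were lower by the fold of 1.5 (Hspa1a/Hspa1b, Sdf2l1, Hsph1, Calr, Canx, Hyou1 and Pdia4) and 4 were higher (Hspb8, Hspa9, Atf4 and Xbp1), while 25 lay within it. Over all 15245 loci with a mean of at least 1 FPKM, 10.5% were lower and 17.5% higher by the same fold. The members' shares were 19.4% lower and 11.1% higher, and these counts are too small to set apart from the shares of all loci. The median difference of the members was -0.33, against 0.04 for all loci, and 24 of the 36 were below 0, where 46.8% of all loci were. Among the 3064 loci with at least 30 FPKM, nearer to the level of most members, 11.6% were lower, 15.7% were higher and 42.4% were below 0. In whole tissue, fewer cells of a type and less RNA per cell cannot be told apart.

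**Figure D1:**
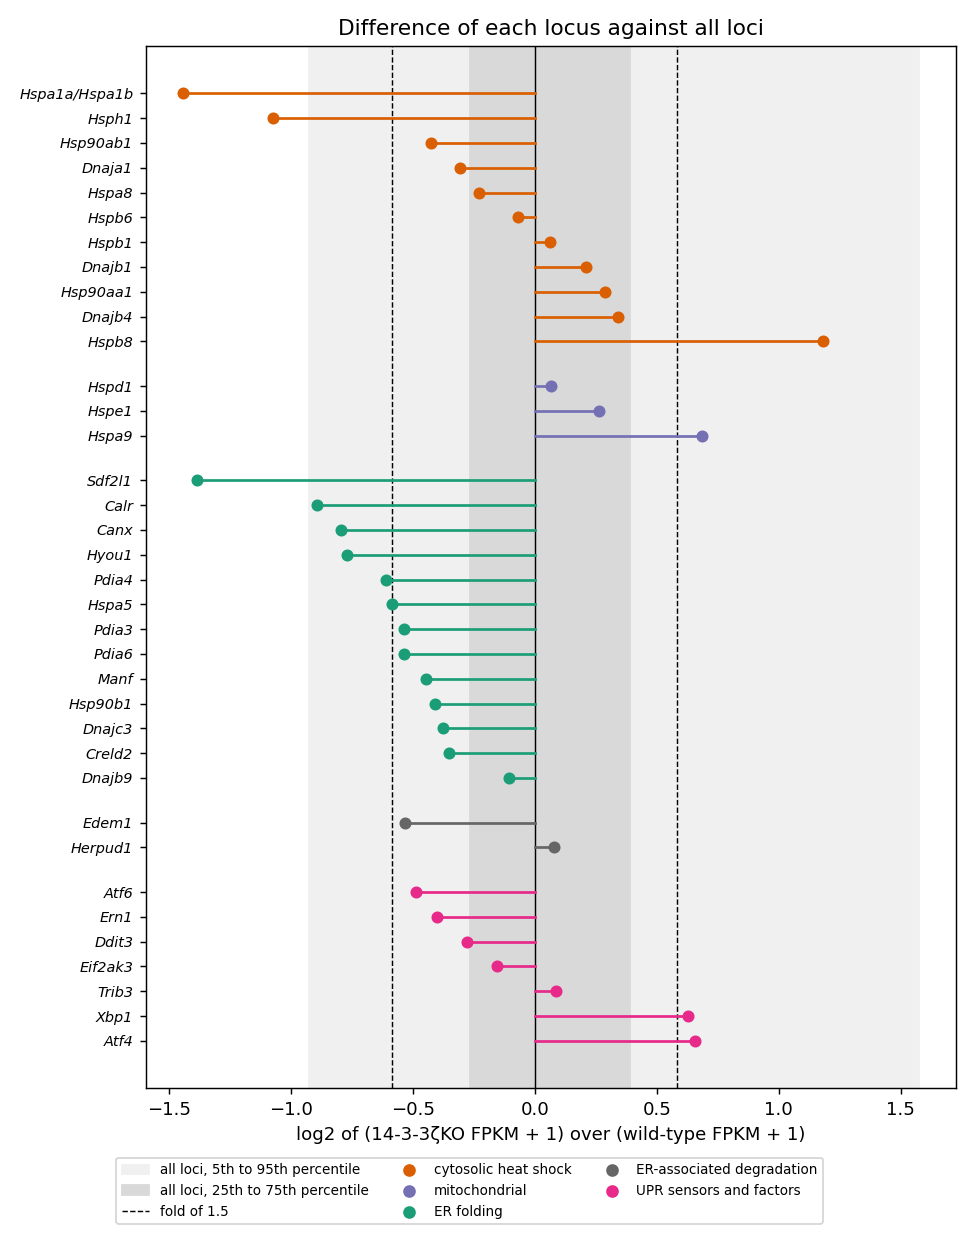
Log2 difference of each of the 36 loci between 14-3-3ζKO and wild-type fat (x axis, log2 of FPKM + 1; 1 value per group), grouped by compartment and coloured by class, with the 5th to 95th and 25th to 75th percentiles of all loci shaded and the fold of 1.5 dashed. The 13 ER folding genes all lie left of 0, the 3 mitochondrial genes lie right of it, and the cytosolic genes span from -1.44 to 1.18.

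The classes were then summed by compartment. Of all loci, 10.5% were lower, 17.5% higher and 46.8% below 0. All 13 ER chaperones and folding enzymes were below 0, with a median of -0.54 and a range from -1.38 to -0.11. By the fold, 5 of them (38.5%) were lower and 0 were higher. Their FPKM summed to 1642 in 14-3-3ζKO and 2495 in wild-type fat, or 65.8% of the wild-type sum. The 11 cytosolic loci had a median of -0.07, with 6 below 0 (54.5%), 2 lower (18.2%) and 1 higher (9.09%). These counts are too small to set apart from the shares of all loci. The sum of the cytosolic loci was 2011 FPKM in 14-3-3ζKO and 2233 FPKM in wild-type (90.1%). The 3 mitochondrial chaperones were above 0 with a median of 0.26, with 0 lower and 1 higher by the fold. Their sum was 451 FPKM in 14-3-3ζKO and 352 FPKM in wild-type (128%). These 3 genes are also too few to set apart from all loci. The 7 UPR sensors and factors had a median of -0.15, with 4 below 0 (57.1%), 0 lower and 2 higher (28.6%). They too are too few to set apart from all loci. Whether the classes differ from one another beyond the spread of the libraries was not tested, because the members have no values per library.

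Within the ER, BiP (Hspa5; chromosome 2, 34627490 to 34655731, NCBIM37) is the HSP70 that binds nascent chains and holds the stress sensors inactive. Hspa5 was at 331 FPKM in 14-3-3ζKO and 496 FPKM in wild-type fat, a difference of -0.58 that lay just short of the fold of 1.5. Just past it lay Pdia4, with a difference of -0.61. The helpers of BiP were lower to unequal degrees. Sdf2l1 (chromosome 16, 17130231 to 17132476), a small luminal protein that works with the J-domain protein ERdj3, had 18.01 FPKM in 14-3-3ζKO and 48.6 FPKM in wild-type, 37.1% of the wild-type level and a difference of -1.38. Only 2.47% of all loci had a lower difference. Hyou1, the HSP110-like exchange factor of BiP, had 23.3 FPKM in 14-3-3ζKO and 40.4 FPKM in wild-type (-0.77). Both J-domain co-chaperones of BiP among the members lay closer to the wild-type level than Sdf2l1 and Hyou1. Dnajc3, which also inhibits PERK, had 32.1 FPKM in 14-3-3ζKO and 41.9 FPKM in wild-type (-0.37). Dnajb9, also called ERdj4, had 34.4 FPKM in 14-3-3ζKO and 37.05 FPKM in wild-type (-0.11), the value nearest to 0 among the ER members. Outside the members, J-domain genes of the ER had differences of -0.57 (Dnajc10), -0.20 (Dnajc1), -0.02 (Dnajb11) and 0.10 (Sec63). Hsp90b1, which encodes GRP94, the HSP90 of the ER lumen, had 276 FPKM in 14-3-3ζKO and 366 FPKM in wild-type (-0.41).

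The lectin chaperones of the glycoprotein folding cycle had the largest differences among the abundant ER members. Calr (chromosome 8, 87365749 to 87370833), encoding soluble calreticulin, had 274 FPKM in 14-3-3ζKO against 509 FPKM in wild-type, or 53.7% (-0.89). In wild-type fat Calr was thus the most abundant ER member, whereas in 14-3-3ζKO fat it lay below Hspa5 and level with Hsp90b1. Canx, encoding its membrane-bound counterpart calnexin, had 79.1 FPKM in 14-3-3ζKO and 138 FPKM in wild-type, or 57.4% (-0.79). Their partner Pdia3, the disulphide isomerase ERp57, had 162 FPKM in 14-3-3ζKO and 236 FPKM in wild-type (-0.54). The other disulphide isomerases followed closely, with Pdia4 at 62.4 FPKM in 14-3-3ζKO and 95.7 FPKM in wild-type and Pdia6 at 138 FPKM in 14-3-3ζKO and 201 FPKM in wild-type (-0.54). Manf, a stress-induced ER protein that is partly secreted, had 167 FPKM in 14-3-3ζKO and 227 FPKM in wild-type (-0.44). Creld2, another stress-induced ER protein, had 45.0 FPKM in 14-3-3ζKO and 57.7 FPKM in wild-type (-0.35). The ER members thus spanned a wild-type range from 37.05 to 509 FPKM, and a lower 14-3-3ζKO value was found at every level of that range.

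**Figure D2:**
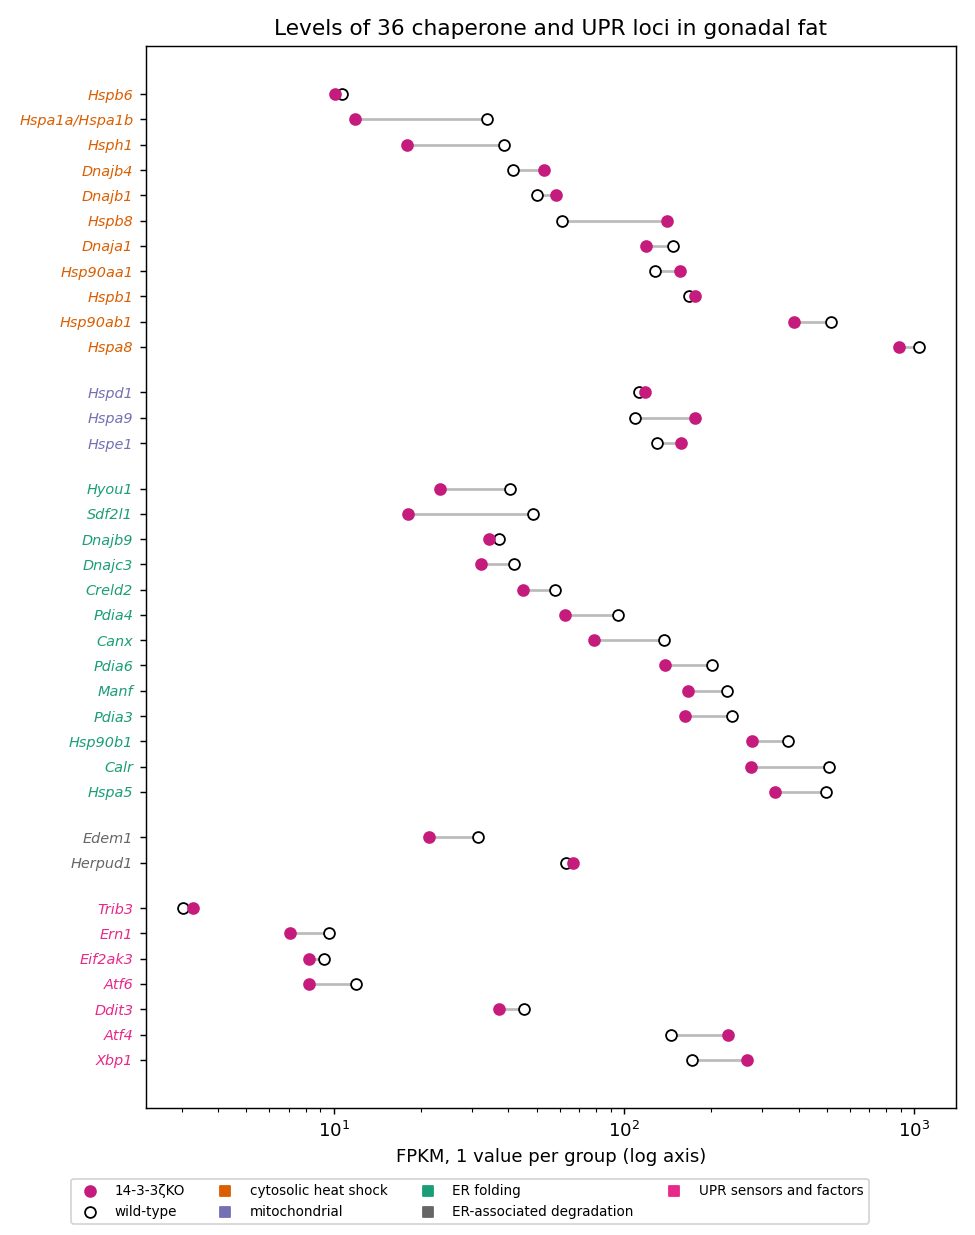
FPKM of each of the 36 loci in 14-3-3ζKO (filled) and wild-type fat (open) on a log axis, 1 value per group with no spread available, grouped by class and ordered by mean level within each. Hspa8, at 884 FPKM in 14-3-3ζKO and 1036 FPKM in wild-type, is the most abundant member and Trib3, at 3.27 FPKM in 14-3-3ζKO and 3.02 FPKM in wild-type, the least, and in the ER class every filled point is left of its open point.

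A known control of the ER class is the ER stress element, the letters CCAAT, 9 free bases and CCACG, which is bound by ATF6 with NF-Y. It was searched on both strands in the 250 bases before each start site of the RefSeq promoter table (build GRCm38.p6, a later build than that of the loci above), which matched 30 of the 37 members. Hspa8, Hsp90aa1, Hsp90ab1, Hspa9, Hyou1, Manf and Atf6 were not matched. The element occurred in 37 of 32851 promoters (0.113%), and among these were 7 of the 11 matched ER folding genes and 0 of the other matched members. The windows are shown because these genes share the element. The members were listed as known heat shock and ER stress genes. A high share with a known element of such genes is therefore not an independent result. Capitals mark the element, 5′ to 3′ on the strand of the gene, in either orientation, with 10 flanking bases.
Hspa5 (chr2:34772015-34772053, plus strand): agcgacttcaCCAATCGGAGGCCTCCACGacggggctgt
Calr (chr8:84847065-84847103, minus strand): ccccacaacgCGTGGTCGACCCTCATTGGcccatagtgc
Canx (chr11:50325790-50325828, minus strand): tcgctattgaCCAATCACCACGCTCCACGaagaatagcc
Hsp90b1, distal (chr10:86705628-86705666, minus strand): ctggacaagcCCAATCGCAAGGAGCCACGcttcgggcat
Hsp90b1, proximal (chr10:86705523-86705561, minus strand): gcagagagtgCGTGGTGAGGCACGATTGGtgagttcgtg
Pdia6 (chr12:17266481-17266519, plus strand): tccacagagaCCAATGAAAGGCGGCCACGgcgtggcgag
Dnajc3 (chr14:118937817-118937855, plus strand): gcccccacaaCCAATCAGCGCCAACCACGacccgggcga
Creld2 (chr15:88819510-88819548, plus strand): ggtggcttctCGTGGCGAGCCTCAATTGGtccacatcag

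The element ended 46 bases before the start site in Hspa5, 79 in Pdia6, 86 in Dnajc3, 107 in Creld2, 126 in Canx and 143 in Calr, and 193 and 88 bases before it in Hsp90b1. The 7 genes that hold it had differences from -0.89 to -0.35, with a median of -0.54. The 4 matched ER genes without it (Sdf2l1, Pdia3, Pdia4 and Dnajb9) ranged from -1.38 to -0.11, with a median of -0.57. The largest and the smallest difference of the class were thus both in genes without a match, and no order by the element was seen. Outside the members, 10 genes with the element passed 1 FPKM, with a median of -0.18. Their differences ranged from -1.44 (Adcy3) to 2.93 (Acacb). They included Derl3, an ER degradation gene, at 13.0 FPKM in 14-3-3ζKO and 20.2 FPKM in wild-type (-0.59), and Syvn1, the HRD1 ubiquitin ligase, at 30.6 FPKM in 14-3-3ζKO and 29.8 FPKM in wild-type (0.04). A match describes letters only and does not show that a factor binds there.

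The whole upstream stretch of Hspa5 is printed because BiP is the reference gene of the ER stress response, again with the element in capitals.
Hspa5 (chr2:34771840-34772089, plus strand): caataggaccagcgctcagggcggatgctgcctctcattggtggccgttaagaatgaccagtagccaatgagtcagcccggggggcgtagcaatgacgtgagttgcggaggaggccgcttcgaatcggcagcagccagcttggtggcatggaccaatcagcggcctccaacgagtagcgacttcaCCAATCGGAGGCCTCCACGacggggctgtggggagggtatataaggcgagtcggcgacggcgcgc

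Among the cytosolic genes, the inducible HSP70 and its exchange factor were the lowest. Hspa1a and Hspa1b (chromosome 17, 35093372 to 35109081, NCBIM37), the stress-inducible HSP70 genes, had 11.8 FPKM in 14-3-3ζKO against 33.9 FPKM in wild-type, 34.9% of the wild-type level and the lowest difference of all members (-1.44). Only 2.22% of all loci had a lower one. Their coding sequences were identical at 99.4% of aligned positions (8 different bases and 3 gap positions), and 247 of the 250 bases before their start sites were identical, so the shared value cannot be divided between them. Hsph1 (chromosome 5, 150416862 to 150438979), the HSP110 that exchanges the nucleotide of HSP70, had 17.9 FPKM in 14-3-3ζKO and 38.7 FPKM in wild-type, or 46.2% (-1.07). The constitutive HSP70, Hspa8, was far more abundant and differed little, at 884 FPKM in 14-3-3ζKO and 1036 FPKM in wild-type (-0.23).

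The HSP90 and HSP40 genes did not share a direction. Hsp90ab1, the constitutive cytosolic HSP90, had 385 FPKM in 14-3-3ζKO and 516 FPKM in wild-type (-0.42), whereas its inducible paralogue Hsp90aa1 had 156 FPKM in 14-3-3ζKO and 128 FPKM in wild-type (0.29). The J-domain proteins of the HSP40 genes hand substrates to HSP70. Dnaja1 had 119 FPKM in 14-3-3ζKO and 148 FPKM in wild-type (-0.31), Dnajb1 had 58.5 FPKM in 14-3-3ζKO and 50.3 FPKM in wild-type (0.21), and Dnajb4 had 52.9 FPKM in 14-3-3ζKO and 41.5 FPKM in wild-type (0.34). All of these lay within the fold of 1.5. The small heat shock proteins, which hold unfolding proteins without ATP, included the highest difference of any member. Hspb8 (chromosome 5, 116858500 to 116873262), a partner of BAG3 in chaperone-assisted autophagy, had 140.5 FPKM in 14-3-3ζKO and 61.4 FPKM in wild-type, or 229% (1.18), and 92.2% of all loci had a lower difference. Bag3, named after its value was seen because of this partnership, had 47.3 FPKM in 14-3-3ζKO and 40.8 FPKM in wild-type (0.21). Hspb1, the mouse HSP27, had 176 FPKM in 14-3-3ζKO and 168 FPKM in wild-type (0.06), and Hspb6, also called HSP20, had 10.1 FPKM in 14-3-3ζKO and 10.7 FPKM in wild-type (-0.07). Of the 3 small heat shock proteins among the members, only Hspb8 passed the fold.

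Heat shock factor binds inverted GAA units. Pairs of units 2 bases apart (GAANNTTC or TTCNNGAA) occurred in 12.8% of the 32851 promoters, before 7 of the 9 matched cytosolic genes, before both matched mitochondrial genes and before 0 of the 11 matched ER folding genes. Eif2ak3 held the remaining match among the members. These shares are likewise not independent of a list chosen as heat shock genes. The pairs are shown in capitals for the cytosolic genes with the lowest differences, and for others nearer to 0 that hold the same kind of element, with up to 10 flanking bases.
Hspa1a (chr17:34972243-34972270, minus strand): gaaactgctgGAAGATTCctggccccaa
Hspa1b (chr17:34959325-34959352, minus strand): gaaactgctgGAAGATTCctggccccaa
Hsph1 (chr5:149636352-149636379, minus strand): ggtagaatctTTCTCGAAggctcgagaa
Dnaja1 (chr4:40722334-40722361, plus strand): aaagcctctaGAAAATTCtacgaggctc
Hspb1, distal (chr5:135887792-135887819, plus strand): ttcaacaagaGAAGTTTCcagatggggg
Hspb1, proximal (chr5:135887812-135887839, plus strand): gatgggggcaGAACCTTCctggccccgc
Dnajb4 (chr3:152193846-152193869, minus strand): tcgttcgctgTTCTAGAAagtaca

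The windows of Hspa1a and Hspa1b are the same letters, 96 bases before each start site. Dnajb1 and Hspb8 were matched to the table and held no pair in the window searched, and the genes that did ranged from -1.44 to 0.34. The 3-unit form (GAA, TTC and GAA, or TTC, GAA and TTC, each 2 bases apart), which contains the pairs, occurred in 153 promoters (0.466%), and among the members only before Hspd1 and Hspe1. These neighbouring genes are transcribed in opposite directions from a shared stretch, so the same letters lie before both, and 1 of the 2 overlapping matches is shown on each strand.
Hspe1 (chr1:55088049-55088081, plus strand): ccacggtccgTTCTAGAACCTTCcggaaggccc
Hspd1 (chr1:55088049-55088081, minus strand): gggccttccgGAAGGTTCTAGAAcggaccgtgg

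**Figure D3:**
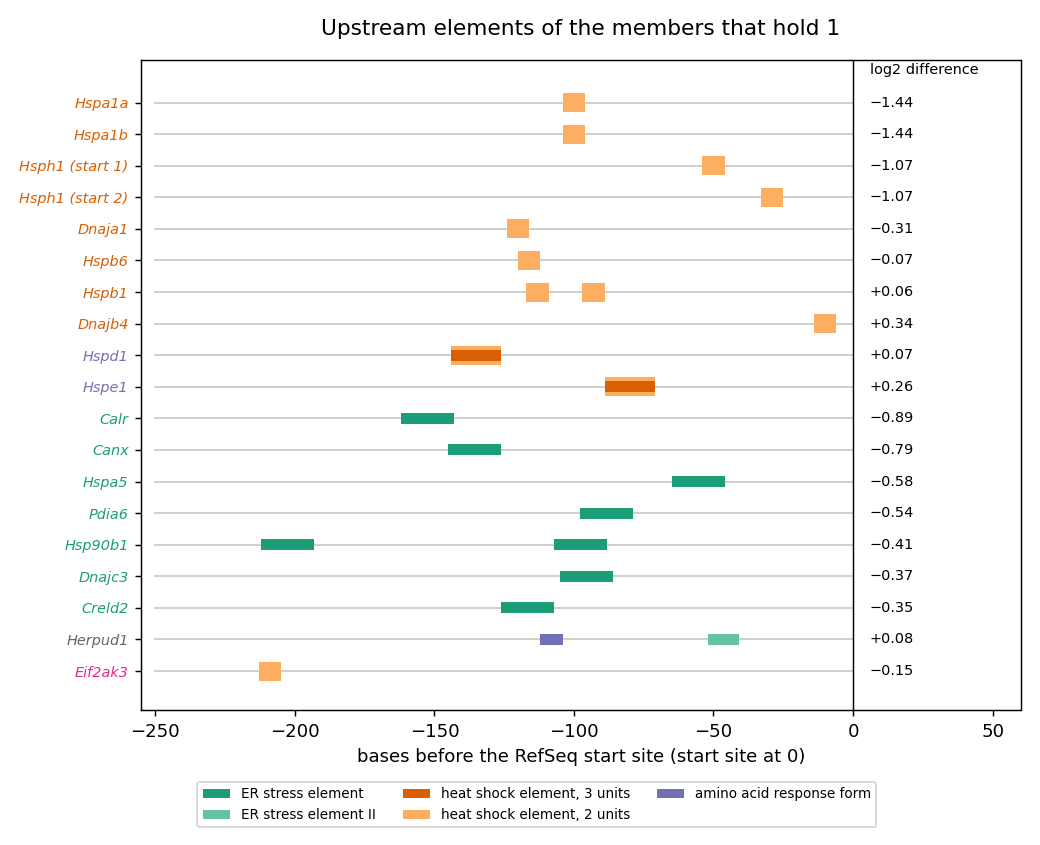
Positions of the searched elements in the 250 bases before the RefSeq start sites of the members that hold any (x axis, bases before the start; colours by element), with each gene's log2 difference at the right. ER stress elements fall before ER folding genes and heat shock elements mostly before cytosolic and mitochondrial genes, and members with the same element have differences as unlike as -1.44 and 0.34.

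The 3 listed mitochondrial chaperones all lay above the wild-type value. Of all loci, 46.8% lay below 0. Hspa9, encoding mortalin, the HSP70 of the matrix that also pulls proteins through the inner membrane, had 176 FPKM in 14-3-3ζKO and 109 FPKM in wild-type, or 161% (0.69). Hspe1, the HSP10 lid of the folding chamber, had 157 FPKM in 14-3-3ζKO and 130.3 FPKM in wild-type (0.26). Hspd1, the HSP60 that forms the chamber, had 118 FPKM in 14-3-3ζKO and 113 FPKM in wild-type (0.07). The chamber genes thus stayed within the fold, and the HSP70 of the compartment passed it. Across the HSP70 genes of the list, the 14-3-3ζKO level was 34.9% of the wild-type level for Hspa1a/Hspa1b, 66.7% for Hspa5, 85.3% for Hspa8 and 161% for Hspa9.

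The sensors of the UPR had lower values in 14-3-3ζKO fat that stayed within the fold, while the factors Xbp1 and Atf4 were higher. Atf6, the membrane-bound factor released by cleavage, had 8.20 FPKM in 14-3-3ζKO and 11.9 FPKM in wild-type (-0.49). Ern1, encoding IRE1α, had 7.05 FPKM in 14-3-3ζKO and 9.64 FPKM in wild-type (-0.40). Eif2ak3, encoding PERK, had 8.25 FPKM in 14-3-3ζKO and 9.29 FPKM in wild-type (-0.15). Xbp1 (chromosome 11, 5420662 to 5442523, NCBIM37), the factor whose mRNA IRE1α splices, had 265 FPKM in 14-3-3ζKO and 171 FPKM in wild-type, or 155% (0.63). Atf4 (chromosome 15, 80085614 to 80087970), the factor translated when PERK and related kinases phosphorylate eIF2α, had 229 FPKM in 14-3-3ζKO and 145 FPKM in wild-type, or 158% (0.66). A gene value does not separate spliced from unspliced Xbp1, and Atf4 is controlled largely in translation, so neither value measures the active factor.

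Ddit3, Trib3, Herpud1 and Edem1, which these factors also induce, lay within the fold. Ddit3, the factor CHOP, had 37.05 FPKM in 14-3-3ζKO and 45.1 FPKM in wild-type (-0.28), and Trib3, a pseudokinase induced by CHOP, had 3.27 FPKM in 14-3-3ζKO and 3.02 FPKM in wild-type (0.09). Herpud1, a membrane component of the degradation complex, had 66.7 FPKM in 14-3-3ζKO and 63.0 FPKM in wild-type (0.08). Edem1, which directs misfolded glycoproteins to degradation, had 21.4 FPKM in 14-3-3ζKO and 31.3 FPKM in wild-type (-0.53). Herpud1 held the only ER stress element II (ATTGG, 1 base, CCACG) among the members, found before 0.0304% of all start sites, and also the amino acid response form TGATGNAA, found before 3.45%. Its element II, in capitals, lies 41 bases before the start and is shown beside the ER stress elements above, from which it differs in spacing and orientation.
Herpud1 (chr8:94386367-94386397, plus strand): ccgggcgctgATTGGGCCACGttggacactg

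Other genes of the pathways were examined as lists beside the members. The other ER folding enzymes and co-chaperones shared the direction of the ER members, with 24 of 28 below 0, 2 lower and 0 higher by the fold, a median of -0.26 and a sum of 1340 FPKM in 14-3-3ζKO against 1721 FPKM in wild-type (77.9%). The share past the fold (7.14%) did not exceed the 10.5% of all loci, while the share below 0 (85.7%) stood against 46.8% of all loci. The lowest of them were Serpinh1, the collagen-specific chaperone HSP47, at 127 FPKM in 14-3-3ζKO and 282 FPKM in wild-type (-1.15), and Nucb2, a calcium-binding protein of the secretory pathway, at 51.7 FPKM in 14-3-3ζKO and 79.8 FPKM in wild-type (-0.62). The highest were Txndc11, a thioredoxin-domain protein, at 16.7 FPKM in 14-3-3ζKO and 14.2 FPKM in wild-type (0.22), and Fkbp7, a prolyl isomerase, at 36.3 FPKM in 14-3-3ζKO and 31.8 FPKM in wild-type (0.18). Genes of ER-associated degradation and translocation had a median of -0.10, with 17 of 24 below 0, 1 lower and 0 higher. Of those of at least 10 FPKM, Derl3 was the lowest, followed by Edem2, a relative of Edem1, at 18.3 FPKM in 14-3-3ζKO and 24.9 FPKM in wild-type (-0.43), while Selk, a selenoprotein of the ER membrane, at 130.5 FPKM in 14-3-3ζKO and 99.4 FPKM in wild-type (0.39), and Ufd1l, a cofactor of the extracting ATPase VCP, at 45.3 FPKM in 14-3-3ζKO and 36.6 FPKM in wild-type (0.30), were the highest. With the ER folding and degradation members included, 55 of 67 ER genes were below 0, 8 lower and 0 higher by the fold, with a median of -0.24. The 8 lower genes are 11.9%, near the 10.5% of all loci, and the 55 are 82.1%, against 46.8% of all loci.

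The other cytosolic and mitochondrial lists had medians from -0.02 to 0.23. Heat shock factors, co-chaperones and relatives of HSP70 had a median of 0.23, with 13 of 32 below 0, 0 lower and 6 higher. The 6 are 18.8% of the list, near the 17.5% of all loci that were higher. The lowest were HSP90 co-chaperones. Cdc37, which brings kinases to HSP90, had 28.8 FPKM in 14-3-3ζKO and 42.8 FPKM in wild-type (-0.55), and Ahsa1, the activator of the HSP90 ATPase, had 52.1 FPKM in 14-3-3ζKO and 71.1 FPKM in wild-type (-0.44). The highest of at least 10 FPKM were J-domain genes, Dnajc7 with 120.3 FPKM in 14-3-3ζKO and 71.4 FPKM in wild-type (0.74) and Dnaja4 with 19.0 FPKM in 14-3-3ζKO and 11.02 FPKM in wild-type (0.73). Hsf1, the factor that drives the heat shock genes and named after its value was seen, had 10.96 FPKM in 14-3-3ζKO and 11.6 FPKM in wild-type (-0.08). The 8 genes of TRiC, the chaperonin that folds actin and tubulin, stayed within -0.01 and 0.33, with 0 past the fold and a median of 0.02. Cct6a had 66.4 FPKM in 14-3-3ζKO and 67.1 FPKM in wild-type (-0.01), Cct5 had 82.5 FPKM in 14-3-3ζKO and 83.3 FPKM in wild-type (-0.01), Cct2 had 96.2 FPKM in 14-3-3ζKO and 90.1 FPKM in wild-type (0.09), and Cct3 had 99.0 FPKM in 14-3-3ζKO and 78.3 FPKM in wild-type (0.33). TRiC was thus the pathway list with the narrowest range. Of the other small heat shock proteins, 5 of 6 passed 1 FPKM, with 1 lower, 1 higher and a median of 0.00. The lower was Cryab, αB-crystallin, at 74.7 FPKM in 14-3-3ζKO and 117 FPKM in wild-type (-0.64), and the higher was Hspb9, at 13.6 FPKM in 14-3-3ζKO and 3.05 FPKM in wild-type (1.85). The sperm nuclear protein genes Tnp1, Tnp2, Prm1 and Prm2 were also higher, at 145, 114, 156 and 150 FPKM in 14-3-3ζKO and 5.79, 5.88, 10.7 and 28.5 FPKM in wild-type. Hspb9 is known as a testis gene, and the part of sperm RNA in its value was not tested. Between them, Hspb7 had 24.4 FPKM in 14-3-3ζKO and 24.4 FPKM in wild-type (0.00), and Hspb11 had 14.3 FPKM in 14-3-3ζKO and 12.7 FPKM in wild-type (0.15). Mitochondrial folding and proteolysis genes had a median of -0.02, with 8 of 13 below 0, 0 lower and 1 higher. The matrix protease subunits Clpp, at 46.3 FPKM in 14-3-3ζKO and 29.5 FPKM in wild-type (0.63), and Clpx, at 28.6 FPKM in 14-3-3ζKO and 19.0 FPKM in wild-type (0.56), were the highest. The lowest of at least 10 FPKM were Htra2, a protease of the intermembrane space, at 19.2 FPKM in 14-3-3ζKO and 22.9 FPKM in wild-type (-0.24), and Atf5, a factor of the mitochondrial stress response, at 47.0 FPKM in 14-3-3ζKO and 55.3 FPKM in wild-type (-0.23).

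The list of the integrated stress response, the pathway through eIF2α and ATF4, and of other UPR regulators had genes on both sides. Of 28 genes over 1 FPKM, 4 were lower and 6 higher by the fold, and 18 were below 0, with a median of -0.18. The shares past the fold (14.3% and 21.4%) were near the 10.5% lower and 17.5% higher of all loci. The share below 0 was 64.3%, against 46.8% of all loci. Ppp1r15a, encoding GADD34, which reverses eIF2α phosphorylation, had 83.9 FPKM in 14-3-3ζKO and 17.95 FPKM in wild-type (2.16). Asns, asparagine synthetase and a target of ATF4, had 47.0 FPKM in 14-3-3ζKO and 17.7 FPKM in wild-type (1.36). The remaining higher genes were Ddit4 (1.05), Eif2ak4 (0.92), Chac1 (0.75) and Nupr1 (0.69). Their values were 65.0, 16.2, 7.64 and 169 FPKM in 14-3-3ζKO and 30.8, 8.07, 4.13 and 104 FPKM in wild-type. At the other end, Wfs1, an ER membrane protein, had 9.87 FPKM in 14-3-3ζKO and 27.2 FPKM in wild-type (-1.38), and Atf3, a stress-induced factor, had 36.8 FPKM in 14-3-3ζKO and 58.6 FPKM in wild-type (-0.66). The remaining lower genes encode membrane-bound factors related to ATF6, with Creb3l1 at 6.21 FPKM in 14-3-3ζKO and 11.3 FPKM in wild-type (-0.77) and Atf6b at 13.4 FPKM in 14-3-3ζKO and 21.1 FPKM in wild-type (-0.62). The amino acid response form occurred before 6 of the 27 matched genes of this list, Atf3 and Asns among them, which lie on opposite sides of 0.

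**Figure D4:**
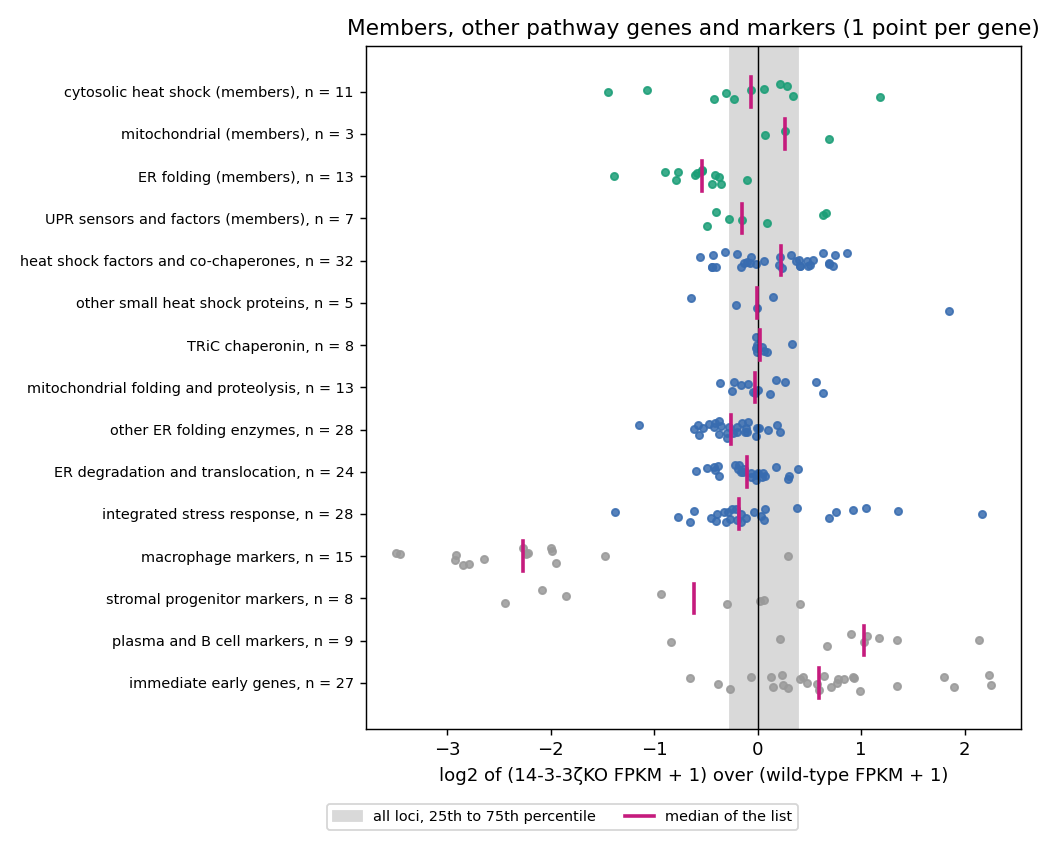
Log2 difference of each gene (points, 1 value per group and no spread) in the member classes, the other pathway lists and 4 marker lists, with the median of each list as a bar and the 25th to 75th percentile of all loci shaded. The ER lists lie left of 0 with medians of -0.54, -0.26 and -0.10, the heat shock co-chaperones right of it at 0.23, and the macrophage markers far to the left at -2.27.

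Markers of other cells moved beside these groups. Of 15 macrophage markers, 14 were lower in 14-3-3ζKO fat and 0 higher, with a median of -2.27 and a sum of 778 FPKM in 14-3-3ζKO against 4399 FPKM in wild-type. The exception, Cd14, had 33.1 FPKM in 14-3-3ζKO and 26.9 FPKM in wild-type. Lyz2 and C1qa, the most abundant, had 334 and 99.1 FPKM in 14-3-3ζKO and 2311 and 395 FPKM in wild-type. Of 8 stromal markers, 4 (Col1a1, Col3a1, Lum and Pdgfra) were lower and 0 higher (median -0.61). The most abundant, Dcn and Ly6a, stood at 518 and 417 FPKM in 14-3-3ζKO and 512 and 315 FPKM in wild-type. Lum divided the wild-type group as Cd68 did. It reached 107, 100 and 118 FPKM in the 3 wild-type libraries high in Cd68. The other wild-type libraries held 21.4, 22.9 and 13.1 FPKM, and the 14-3-3ζKO libraries 6.57 to 22.3 FPKM. Col1a1 was less cleanly divided. In the same order it had 105, 63.3 and 109 FPKM, then 13.5, 48.0 and 21.1 FPKM, against 1.65 to 14.9 FPKM in 14-3-3ζKO. Markers of plasma and B cells, which are rich in ER, lay mostly above 0, with 7 of 9 higher, 1 lower (Sdc1, which other cells also express) and a median of 1.03, led by Igkc and Ighm at 3493 and 1960 FPKM in 14-3-3ζKO and 1373 and 870 FPKM in wild-type. Immediate early genes were higher in 14 of 27 and lower in 1 (Atf3, also in the stress response list), with a median of 0.59, and their sum was 1497 FPKM in 14-3-3ζKO and 908 FPKM in wild-type. The 12 adipocyte markers had a median of 0.25, with 1 lower (Lep) and 4 higher (Fabp4, Cfd, Retn and Cidec). No marker found in the table was at 0 in either genotype. The part of these cells, of the 3 wild-type libraries high in Cd68 and of 14-3-3ζKO replicate 1 in the ER, heat shock and stress response values was not tested.

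The remaining marker lists had medians of 0.04 for T cells (1 of 7 lower, 1 higher), 0.26 for endothelium (0 of 8 lower, 3 higher), 0.28 for smooth muscle (1 of 8 lower, 2 higher), 0.94 for mesothelium (0 of 8 lower, 6 higher) and 1.83 for red cells (0 of 7 lower, 7 higher). The list of epididymal and sperm genes, divided with its values in view, held 6 epididymal genes that were all below 0 (3 lower by the fold, median -0.59) and 4 sperm genes that were all higher (median 3.90). Skeletal muscle markers were near the floor, with 3 of 8 over 1 FPKM and a median of 0.29.

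Of the 36 member loci, 13 span another annotated coding gene, namely those of Hspa1a/Hspa1b, Hspb6, Dnaja1, Dnajb4, Hspd1, Hspe1, Hspa5, Pdia3, Pdia6, Manf, Xbp1, Atf6 and Ddit3, and 23 span none. The sources used here do not say that strand was used in counting, so for the 13 the division of reads between neighbours is uncertain. Calr, Canx, Hyou1, Sdf2l1, Pdia4, Hsph1, Hspb8, Hspa9 and Atf4, all past the fold, are among the 23.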

How the data were processed

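RNA of gonadal white adipose tissue from 5 14-3-3ζKO and 6 wild-type samples was sequenced by the authors with paired-end reads. According to the submitters' processing notes, reads were aligned with TopHat2 2.0.11 to NCBIM37 and transcripts were quantified with Cufflinks 2.2.0 and its Cuffdiff program. For 42815 loci the authors deposited the FPKM of each group, and for 86 loci the FPKM of each library as well. The authors' own comparison columns (fold change, test statistic, p-value, q-value and call) were not used. The mean of the libraries matched the group value within a relative difference of 1e-05 for 171 of 172 values, the exception being C1qb in wild-type. The scaling between libraries was not given in the sources used here.

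Libraries were grouped by their titles, which number samples without naming animals. Members were compared as log2(FPKM + 1) differences, with a floor of 1 FPKM on the mean of both groups and a fold of 1.5, and no test was run, because no member had values per library. A symbol on several loci took the locus of highest mean. The members and all gene lists were chosen with earlier results of these data known. Values are given for members past the fold, the 3 most abundant of each class and all UPR genes; of each other list for the 2 highest and 2 lowest differences at 10 FPKM or more; and of the marker lists for the 2 most abundant genes of those that are described in detail. Adipoq, Cd68, Ier3, Gadd45g, Dnajc10, Dnajc1, Dnajb11, Sec63, Adcy3 and Acacb were chosen for naming with their values in view. So were Lum, Col1a1 and the listed genes of short counts. Alternatives were a pseudocount of 0.1, other floors, a fold of 2, recentring, other treatment of shared loci, and each library left out for Ywhaz. Gene positions are from GENCODE vM1, and upstream sequences from RefSeq (GRCm38.p6). Scripts used python 3.11.15, numpy 2.4.6, pandas 2.3.3 and matplotlib 3.10.9 and were tested on simulated data.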

Additional observations from a re-analysis of the deposited data

Results flagged for a closer look

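Among 26 groups of library values (13 genes in 2 genotypes), 3 had a highest library whose gap to the nearest one, as a share of the group's range, exceeded Dixon's 95% critical value for that number of libraries. Chance passes this value in about 1 of 20 groups of independent, normally distributed values. The rule was applied to FPKM without a log, so the rate for these values is not known. These genes came from loci selected by the authors' comparison and from marker lists, and in each case the library was 14-3-3ζKO replicate 1, so the 3 are not independent. It had 358 FPKM of Gadd45g, a growth arrest gene induced by stress, where the other 14-3-3ζKO libraries had 24.9 to 90.5 FPKM. It had 268 FPKM of the immediate early gene Ier3, where the others had 18.4 to 82.2 FPKM. It had 20.8 FPKM of Slc4a1, the anion exchanger of red cells, where the others had 0.0508 to 0.526 FPKM. The share of this library in the group values of the chaperone genes was not tested.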

How the results depend on the processing

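Counts of members past the fold depended on the fold itself. At a fold of 2, 3 members were lower and 1 higher in 14-3-3ζKO fat, with 1 ER folding gene lower, 0 mitochondrial genes and 0 UPR genes higher, and 4.31% of all loci lower and 9.67% higher. Without a floor, 4.17% of all loci were lower and 8.62% higher. Leaving out loci with several symbols removed Hspa1a/Hspa1b and left 1 cytosolic gene, Hsph1, lower. After recentring on the median of all loci, Hspa5 also passed the fold of 1.5, giving 8 lower members and 6 lower ER folding genes. In all, 100 alternative values stayed within 1.5 times the main count or, for Ywhaz, within the spread of the libraries, and 10 moved. Many of the 100 were counts of 0 that stayed at 0. Dropping the floor could not change member counts, because all 37 members pass it. The total is therefore no measure of how stable the counts are. The Ywhaz difference of -2.28 ranged from -2.48 to -2.15 when each library was left out. Leaving out a library was not run for members, which have no values per library. No paired analysis was possible because no member has values per library and the results come from no test.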
